A study of Mus musculus with 20 samples.

Results

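Secretoglobins are small secreted proteins of mucosal surfaces, and 3 of them mark the club cells (formerly Clara cells) of the airway: Scgb1a1, Scgb3a1 and Scgb3a2. Their transcripts were followed in 20 mouse whole tracheas by taking every non-control probe that the array names for 1 of these genes, which gave 3 probes, 1 for each gene, of 41174 probes in all. The 4 groups, 5 tracheas each, crossed genotype (wild-type or Myd88KO) with injury (none or polidocanol). All mice were of C57/Bl6 background with a labelled age of 4 months, the methods giving a wider adult range and both sexes. Injured mice had received 2% polidocanol, a detergent that strips the surface epithelium, into the airway 3 days earlier, and uninjured mice served as controls. Myd88KO mice lacked the Toll-like receptor adaptor in every cell, had been back-crossed to C57/Bl6JOlaHsd and were bred knockout to knockout, whereas wild-type mice came from a separate in-house colony, so genotype and colony cannot be told apart. The question was whether loss of Myd88 changed these secretory transcripts at rest and after epithelial injury.

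Club cells are the non-ciliated secretory cells of the airway surface. They metabolise inhaled chemicals, secrete into the lining fluid, and can divide and give rise to ciliated cells. Scgb1a1 encodes Clara cell secretory protein (CCSP), a dimer that binds hydrophobic ligands and is the classical protein marker of the club cell. Scgb3a2 encodes a related secreted protein whose gene is a target of the transcription factor Nkx2-1, and the scavenger receptor Marco and the proteoglycan syndecan have been proposed to bind it. Scgb3a1 encodes a further member, made by secretory cells of the larger airways.

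Upstream sequence is shown for Scgb3a1, the secretoglobin not called after injury in either genotype, beside 2 other club cell genes. Bpifa1, a secreted lipid-binding protein, was lower after injury in both genotypes, and Cyp2f2, a cytochrome P450 of club cells, was called in neither. Each run is the 250 bases before the RefSeq start of the gene (build GRCm38.p6), of which Scgb3a1 covers chr11:49663345-49663594, Bpifa1 chr2:154142630-154142879 and Cyp2f2 chr7:27119705-27119954, all on the plus strand. Capitals mark letters of the motifs searched on both strands, CTCAAG (the Nkx2-1 type), TGTTTAC and TGTTTGC (the forkhead type of Foxa1 and Foxa2) and TTNNGCAA (the C/EBP type).
Scgb3a1: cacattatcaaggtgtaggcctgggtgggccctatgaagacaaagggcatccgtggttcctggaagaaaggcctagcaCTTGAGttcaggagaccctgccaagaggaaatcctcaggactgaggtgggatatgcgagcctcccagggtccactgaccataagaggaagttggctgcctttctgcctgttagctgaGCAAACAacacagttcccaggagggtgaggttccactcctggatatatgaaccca
Bpifa1: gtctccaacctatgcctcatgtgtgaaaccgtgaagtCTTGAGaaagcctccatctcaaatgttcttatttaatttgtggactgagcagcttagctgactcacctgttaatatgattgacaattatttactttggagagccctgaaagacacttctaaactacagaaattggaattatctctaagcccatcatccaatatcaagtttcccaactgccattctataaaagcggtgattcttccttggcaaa
Cyp2f2: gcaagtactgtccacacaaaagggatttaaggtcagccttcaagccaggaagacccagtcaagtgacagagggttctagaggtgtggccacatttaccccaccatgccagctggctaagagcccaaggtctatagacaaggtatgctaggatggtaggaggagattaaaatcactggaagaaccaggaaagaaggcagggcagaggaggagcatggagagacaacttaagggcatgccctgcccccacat
The Scgb3a1 run held CTCAAG on its minus strand, 172 to 167 bases before the start, and TGTTTGC on its minus strand, 55 to 49 bases before it. Bpifa1 held CTCAAG on its minus strand, 213 to 208 bases before the start, and the Cyp2f2 run held none of the 4 motifs. Of 32851 RefSeq windows of the same length, 13.3% held CTCAAG, 4.3% TGTTTGC, 3.17% TGTTTAC and 9.56% TTNNGCAA, so such matches were common and describe letters only. RefSeq windows matched 1 of the 3 secretoglobins and 16 of the 22 other club cell genes listed for the comparisons.

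Between 57.5% and 67.8% of spots were well above background on each array, and the 3 secretoglobin probes were so on 20 of 20 arrays with no saturated spot. Slide and replicate number coincided, each of the 5 slides holding 1 array of each group, and slides 4 and 5 (replicates 5 and 1) were scanned on a second day. Myd88 itself, read by 1 probe, lay between 1.6 and 2.04 (log2 level) in uninjured Myd88KO and between 1.94 and 2.28 in uninjured wild-type tracheas. After injury it lay between 1.54 and 2.09 in Myd88KO and between 2.36 and 2.8 in wild-type (difference -0.77, limma adjusted p = 0.00824). Whether that probe lies in the deleted part is not given in the sources used here, so it does not check the labels. Cartilage and smooth muscle genes (summed log2 level 7.87 to 8.64) and basal cell genes (7.74 to 9.45) were present on every array, as were thyroid genes (6.44 to 8.89) and oesophageal squamous genes (3.6 to 9.15), which belong to neighbouring tissue. The oesophageal 9.15 was uninjured wild-type replicate 3 alone, and the next highest array read 6.38. That replicate also had the lowest uninjured wild-type Scgb1a1, Scgb3a1 and Scgb3a2 levels (6.97, 8.22 and 8.86). The part of neighbouring tissue in them was not tested. Injured Myd88KO replicate 5 stood apart: it had 192 spots with an outlier mark against 69 to 113 on the other arrays, and its proliferation, leukocyte and ciliated gene medians lay within 0.28 of uninjured Myd88KO. The only secretoglobin spot with such a mark was Scgb1a1 on that array (non-uniform pixels), and values are given with and without it.

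The probes were 60 bases long. In the positions given by the array files, whose genome build is not stated, the Scgb1a1 probe (A_51_P128575) lay on chromosome 19 at 8763869 to 8763928 on the minus strand. The Scgb3a1 probe (A_51_P110341) lay on chromosome 11 at 49621744 to 49621803 on the plus strand. The Scgb3a2 probe (A_51_P303097) lay on chromosome 18 at 44144762 to 44144821 on the plus strand.

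At rest all 3 transcripts gave bright signals in both genotypes, and their levels (log2 intensity above the array's 75th percentile) differed little among tracheas. Scgb1a1 read 7.93, 7.05, 6.97, 7.11 and 7.41 in uninjured wild-type replicates 1 to 5, and 8.25, 7.65, 7.91, 7.88 and 8.09 in uninjured Myd88KO. Myd88KO was higher on each of the 5 slides, by 0.32 to 0.94, yet the ranges of the groups overlapped. The means were 7.29 ± 0.39 (SD, n = 5) and 7.96 ± 0.23 (SD, n = 5), a difference of 0.66 (95% interval -0.78 to 2.1, limma adjusted p = 1). Scgb3a2 read 9.66, 9.15, 8.86, 8.89 and 9.6 in wild-type and 9.3, 9.13, 9.25, 8.59 and 9.42 in Myd88KO (difference -0.09, interval -1.84 to 1.65, limma adjusted p = 1). Scgb3a1 read 9.44, 8.73, 8.22, 8.7 and 9.44 in wild-type and 9.25, 8.88, 9.32, 8.63 and 9.35 in Myd88KO (difference 0.18, interval -0.31 to 0.67, limma adjusted p = 1). None of the 3 was called between uninjured genotypes, against 0.384% of the 26075 probes tested. These limma intervals rest on 1 spread per gene, pooled over all 4 groups. For Scgb1a1 and Scgb3a2 injured Myd88KO widened it (SD 2.54 and 2.72), so these intervals are wider than the spread among uninjured tracheas alone would give. Where injured Myd88KO is itself compared, the pooled spread is smaller than its own. Intervals printed for those comparisons are then narrower than its own spread would give. Under 12 alternatives, among them a fit to the uninjured groups alone, the uninjured Scgb1a1 difference was 0.51 to 0.69 and not called.

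**Figure D1:**
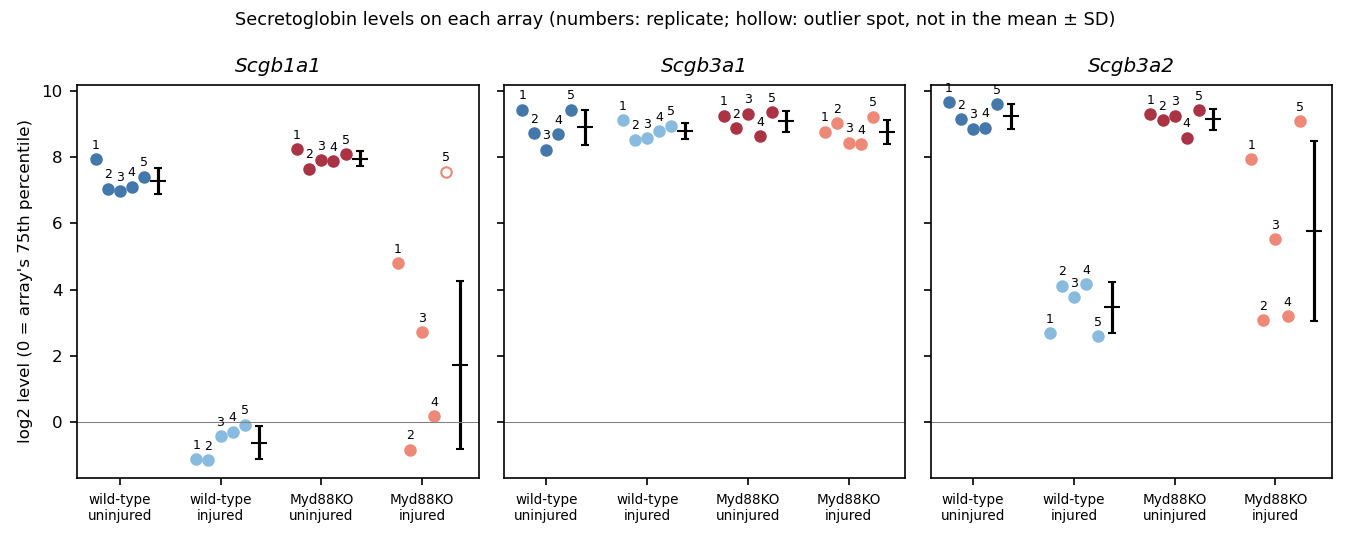
Log2 level of each secretoglobin (vertical axis, 0 is the array's 75th percentile) on every array, with the replicate number above each point and the mean ± SD beside each group. Scgb1a1 and Scgb3a2 drop in all 5 injured wild-type tracheas and spread from low to near-uninjured levels in injured Myd88KO, Scgb3a1 stays between 8.22 and 9.44 throughout, and the hollow point is the Scgb1a1 spot left out of the mean.

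On day 3 after polidocanol, Scgb1a1 and Scgb3a2 transcripts were far lower in wild-type tracheas, while Scgb3a1 was not called. Scgb1a1 read -1.13, -1.16, -0.43, -0.29 and -0.09 in injured wild-type replicates 1 to 5, all far below the lowest uninjured value. It fell by 7.91 on the log2 scale (SE 0.69, 95% interval -9.35 to -6.47), 241-fold (limma adjusted p = 1.05e-05), and no other tested probe fell further in wild-type tracheas. In unscaled intensity this was a median of 112000 in uninjured and 594 in injured tracheas, where the spot was still well above background on 5 of 5 arrays. Scgb3a2 read 2.68, 4.11, 3.77, 4.16 and 2.59 after injury and fell by 5.77 on the log2 scale (SE 0.83, interval -7.51 to -4.03), 54.5-fold (limma adjusted p = 0.000394). Scgb3a1 read 9.12, 8.52, 8.58, 8.79 and 8.96, within its uninjured range, and its difference was -0.11 (SE 0.23, interval -0.6 to 0.38, limma adjusted p = 0.808). So 2 of the 3 secretoglobins were called lower, where 2.02% of tested probes were, and the same 2 had groups that did not overlap, where 4.68% of probes did. Every slide showed both falls, from -9.07 to -7.4 for Scgb1a1 and from -7.01 to -4.73 for Scgb3a2, and with slide as a block they were -7.91 (limma adjusted p = 6.12e-05) and -5.77 (limma adjusted p = 0.00125). In whole trachea, fewer club cells and less transcript per club cell cannot be told apart. Of 10 genes shared by airway epithelia, mostly keratins and junction genes, 1 rose (Krt7, by 1.13, where 3.24% of tested probes were called higher), 0 fell by limma, and the median difference was 0.18.

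The sign of the Scgb3a1 difference depended on scaling, being 0.08 with quantile normalization, and its spot was read from the low-gain scan on 20 of 20 arrays. Its intensities ran from 261000 to 411000, where the brightest spot of an array lay between 447348 and 671820. Of 40 tested probes with an uninjured wild-type mean level above 8, 2 were called lower after injury (Bpifa1 and Scgb3a2) and 38 were not called. Uninjured Scgb3a2 spots were similarly bright (383000 to 481000 in wild-type and 350000 to 456000 in Myd88KO), each read from the low-gain scan. The part of this brightness in the Scgb3a1 and Scgb3a2 values, and in the shifts of pairs that hold them, was not tested.

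In injured Myd88KO tracheas Scgb1a1 fell on average too, but its 5 values ranged from as low as in wild-type to nearly uninjured. Replicates 1 to 5 read 4.79, -0.84, 2.72, 0.18 and, at the marked spot, 7.56. Without that spot the mean was 1.71 ± 2.54 (SD, n = 4), a fall of 6.24 on the log2 scale (SE 0.73, interval -7.77 to -4.72, 75.8-fold, limma adjusted p = 0.000691). With it the mean was 2.88 ± 3.42 (SD, n = 5), and the difference of -5.08 (SE 1.01, interval -7.18 to -2.97) was not called (limma adjusted p = 0.0125). These SEs use the pooled spread. In a one-way test of the 2 groups alone, without that spot, the SE was 1.12 in place of 0.73. Scgb3a2 read 7.94, 3.07, 5.52, 3.2 and 9.08, in the same order across tracheas as Scgb1a1. Its difference was -3.37 (SE 0.83, interval -5.11 to -1.63, limma adjusted p = 0.0326), which was not called, and without replicate 5 it was -4.2 (SE 0.69, limma adjusted p = 0.000838), which was. Scgb3a1 read 8.76, 9.02, 8.43, 8.4 and 9.22 (difference -0.31, SE 0.23, interval -0.8 to 0.18, limma adjusted p = 0.494). Of the 3, 1 was called lower, where 0.242% of tested probes were, and the same 1 had groups that did not overlap, with or without the marked spot, where 2.3% did. That count sets Scgb1a1 without replicate 5 against Scgb3a2 with it. With replicate 5 kept for both, neither was called (limma adjusted p = 0.0125 for Scgb1a1 and 0.0323 for Scgb3a2). Without it both were (limma adjusted p = 3.52e-05 and 0.000838). Without replicate 5 the probes called lower in Myd88KO numbered 588 in place of 63, and without replicate 2 or without replicate 4 they numbered 5. On the 5 slides the Scgb1a1 difference ranged from -8.49 to -0.54, and with slide as a block it was -6.18 (limma adjusted p = 0.00154).

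Injured Myd88KO tracheas had higher mean Scgb1a1 and Scgb3a2 than injured wild-type tracheas, but neither difference was called. For Scgb1a1 it was 2.33 (SE 0.73, interval 0.8 to 3.86, limma adjusted p = 0.18), or 3.5 with the marked spot (limma adjusted p = 0.138), with 5 of 5 slides above 0 when that spot is counted. Without both that spot and Myd88KO injured replicate 1 it was 1.3, from 3 Myd88KO arrays. Leaving out each array in turn, with the marked spot also out, gave 1.3 to 3.18, never called. For Scgb3a2 it was 2.3 (SE 0.83, interval 0.56 to 4.05, limma adjusted p = 0.244), with 3 slides above 0 and 2 below. Without Myd88KO injured replicate 5 it was 1.47, and leaving out each array in turn gave 1.47 to 2.98, never called. For Scgb3a1 it was -0.02 (interval -0.51 to 0.47, limma adjusted p = 0.978), which turned positive under quantile normalization. None of the 3 was called, against 0.38% of tested probes. For Scgb1a1 and Scgb3a2 these intervals use the pooled spread, which is smaller than that of injured Myd88KO, so they are too narrow for that group. The differences were unlike between scan days. The second-day arrays were replicates 1 and 5, so scan day and differences between tracheas cannot be told apart. For Scgb3a2, Myd88KO minus wild-type was -0.08 over the 3 slides of the first day and 5.89 over the 2 of the second. For Scgb1a1 the same values were 1.31 and 5.4, the latter from 1 Myd88KO array. With scan day as a block the injured genotype differences were 2.48 for Scgb1a1 (limma adjusted p = 0.0798) and 2.3 for Scgb3a2 (limma adjusted p = 0.152).

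The difference between the injury responses, tested as an interaction, was 1.67 for Scgb1a1 (SE 1, interval -0.43 to 3.77, limma adjusted p = 0.559) and 2.84 with the marked spot (limma adjusted p = 0.501). Without both the marked spot and Myd88KO injured replicate 1 it was 0.64, and leaving out each array in turn gave 0.64 to 2.52. The interaction was 2.4 for Scgb3a2 (SE 1.18, interval -0.07 to 4.86, limma adjusted p = 0.491), and 1.56 (without Myd88KO injured replicate 5) to 3.07 without any single array. It was -0.2 for Scgb3a1 (interval -0.9 to 0.49, limma adjusted p = 0.853). Limma called 0% of the 26075 probes for this interaction, 2703 having an unadjusted p under 0.05 and the smallest adjusted p being 0.179. Unequal responses of the secretoglobins between genotypes were thus not shown, nor were equal ones.

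Within each array, the level of 1 secretoglobin was set against another, which cancels the scaling of the array. The offset between 2 probes has no meaning of its own, so only its shift between groups was tested, by a two-sided exact permutation test with Benjamini-Hochberg adjustment over 9 tests. In wild-type, Scgb1a1 minus Scgb3a1 moved from -1.61 ± 0.28 (SD, n = 5) to -9.41 ± 0.55 (SD, n = 5), a shift of -7.8 (exact permutation p = 0.00794, adjusted 0.0102). Scgb3a1 minus Scgb3a2 moved by 5.66 (exact permutation p = 0.00794, adjusted 0.0102), from between -0.64 and -0.16 to between 4.41 and 6.45. Scgb1a1 also fell further than Scgb3a2, by 2.14 in wild-type (4.41-fold) and by 2.04 in Myd88KO (4.11-fold), each with exact permutation p = 0.00794, adjusted 0.0102. In Myd88KO that last shift was -1.7 with the marked spot, again with exact permutation p = 0.00794. The part of the brightness of uninjured Scgb3a2 in the size of these shifts was not tested. The smallest p these designs allow is 0.00794, and pairing arrays by slide allows none below 0.0625, so no pairwise shift could pass then.

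By the unpaired exact permutation test, the uninjured genotypes differed in the balance of the 3 transcripts. Arrays sharing a slide were correlated between these groups (r = 0.25 to 0.48). Paired by slide, the exact sign-flip permutation p was 0.0625 to 0.125, where none could pass. Scgb1a1 minus Scgb3a2 lay between -2.19 and -1.72 in wild-type and between -1.48 and -0.71 in Myd88KO, with no overlap, a shift of 0.75 (exact permutation p = 0.00794, adjusted 0.0102). Scgb1a1 minus Scgb3a1 shifted by 0.48 (exact permutation p = 0.0238, adjusted 0.0268), and Scgb3a1 minus Scgb3a2 by 0.27 (exact permutation p = 0.0317, adjusted 0.0317). A shift within arrays shows that the transcripts differed unequally between genotypes and not which of them differed. Single arrays decided the 2 smaller shifts. By the exact permutation test the Scgb1a1 minus Scgb3a1 shift lost its call without Myd88KO replicate 1 (0.45, adjusted p = 0.051) or 4 (0.39, adjusted p = 0.0612). The Scgb3a1 minus Scgb3a2 shift lost its call without wild-type replicate 3 (0.19, adjusted p = 0.0556) or without Myd88KO replicate 1, 3, 4 or 5 (0.24 to 0.28, adjusted p = 0.0714 to 0.0794).

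**Figure D2:**
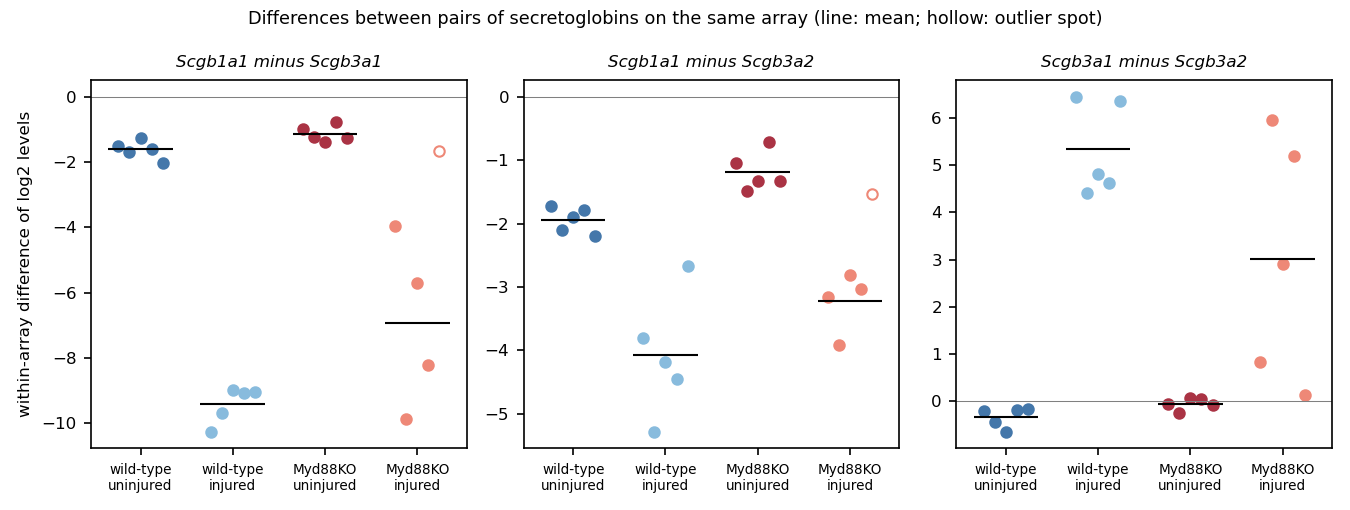
Difference of log2 levels between 2 secretoglobins on the same array (vertical axis) in each group, with points for arrays and a line for the mean. Scgb1a1 against Scgb3a1 drops from about the -1.61 mean of uninjured to the -9.41 mean of injured wild-type tracheas, and the uninjured genotypes do not overlap for Scgb1a1 minus Scgb3a2.

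The other secretoglobins on the array belong to the androgen-binding protein branch, known from salivary and lacrimal secretions, and are close copies of one another that cross-hybridisation could mix. Of 11 secretoglobin or androgen-binding protein probes, 3 besides the club cell members passed the filter on dim probes. Scgb2b20 and Scgb2b2 read 2.46 ± 0.73 (SD, n = 5) and -0.65 ± 0.55 (SD, n = 5) in uninjured wild-type. After wild-type injury the differences were -0.79 for Scgb2b20, -1.57 for Scgb2b2 and -0.59 for Scgb1b27 (limma adjusted p = 0.521, 0.256 and 0.615), and none was called in any comparison. Scgb2b20 spread from -1.12 to 3.35 among the injured wild-type tracheas, with replicates 4 and 5 low. Scgb2b2 was low on the same 2 arrays, at -5.17 (not well above background) and -4.22. Scgb1b27 was dim, being well above background on only 14 of 20 arrays.

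Beyond the secretoglobins, some club cell genes fell after wild-type injury. Of 22 other club cell genes, 8 fell and 0 rose, where 2.02% of tested probes were called lower and 3.24% higher. The list's median difference was -0.98 against 0 over all tested probes. The called genes were mostly enzymes and secreted products. Cyp4b1, a cytochrome P450, fell by 3.73 (SE 0.53, limma adjusted p = 0.00038), Aox3, an aldehyde oxidase, by 2.25 and Aldh1a1, a retinaldehyde dehydrogenase, by 2.06. Bpifa1 fell by 2.24, Sftpd, the surfactant protein and collectin, by 1.87, Gsta3, a glutathione transferase, by 1.79 and Lypd2 by 1.69. Other classical club cell transcripts were not called: Cyp2f2 differed by -0.61 (SE 0.23, limma adjusted p = 0.0933), the carbonyl reductase Cbr2 by -0.36 (limma adjusted p = 0.331) and the P450 reductase Por by -0.4 (limma adjusted p = 0.25). Hp, haptoglobin, differed by 1.34 (limma adjusted p = 0.0121). Without wild-type injured replicate 1 the list's called genes numbered 5, where 291 probes in all were called lower. That array and wild-type injured replicate 5, both scanned on the second day, had the lowest list medians, -1.85 and -1.83, against -0.73 to -0.35 for the other 3.

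In injured Myd88KO tracheas 1 of the 22 club cell genes fell (Bpifa1, by 2.36, limma adjusted p = 0.00287) and 0 rose, where 0.242% of tested probes were called lower. The list's median was -0.62 against -0.07 over all tested probes. Without replicate 5, 4 fell, where 588 probes in all were called lower. Cyp4b1 differed by -2.4 (limma adjusted p = 0.0222). No club cell gene was called between genotypes, at rest or after injury, or for the interaction. The interaction was above 0 for 15 of the 22 (median 0.35 against -0.09 over all tested probes, 4 with an unadjusted p under 0.05). It was 1.42 for Aox3 and 1.33 for Cyp4b1 (limma adjusted p = 0.391 and 0.541), -1.34 for Hp (limma adjusted p = 0.391), and -0.12, 0 and 0.23 for Bpifa1, Cbr2 and Cyp2f2.

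**Figure D3:**
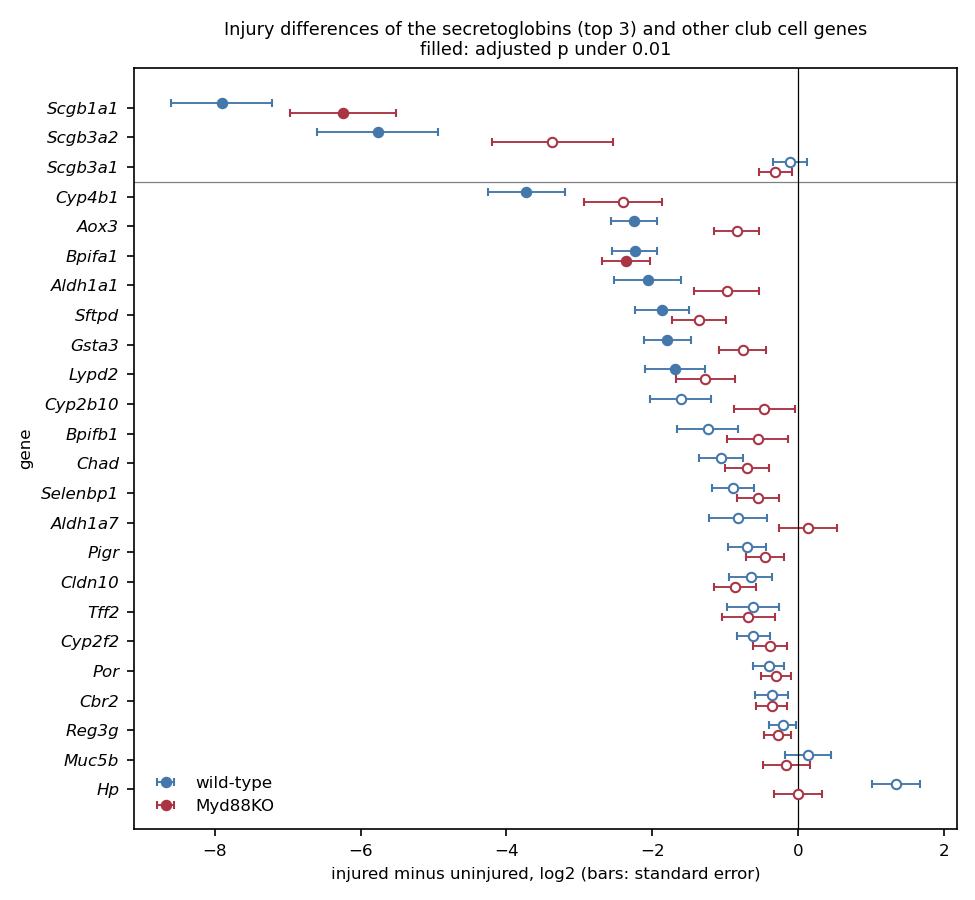
Injured minus uninjured log2 difference (horizontal axis, bars are standard errors) of the 3 secretoglobins, above the line, and of other club cell genes, in wild-type and Myd88KO tracheas, filled where the adjusted p was under 0.01. Scgb1a1 and Scgb3a2 lie at -7.91 and -5.77 in wild-type, left of every other club cell gene plotted, while Scgb3a1 lies at -0.11.

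Regulators of airway secretory genes were not called. Of 12 transcription factors, 0 rose and 0 fell by limma after wild-type injury (median -0.2, 2 with an unadjusted p under 0.05), or after injury in Myd88KO (median -0.25, 4 with an unadjusted p under 0.05). Nkx2-1, which sets airway and thyroid identity, differed by -0.25 (limma adjusted p = 0.492) in wild-type. The forkhead factors Foxa1 and Foxa2 differed by -0.12 and -0.73 (limma adjusted p = 0.848 and 0.106), and Cebpa, a factor of the C/EBP family, by -0.04 (limma adjusted p = 0.919). Thyroid, which also makes Nkx2-1, gave the summed levels above, and its part in the Nkx2-1 values was not tested. Of 4 proposed receptors for secretoglobins, none was called in any comparison: Marco, a macrophage scavenger receptor, differed by 2.69 after wild-type injury (limma adjusted p = 0.0169), while Sdc1, Cubn and Lmbr1l differed by 0.19, -0.23 and -0.01.

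Other cell types changed in the same tracheas. Of all tested probes, 3.24% were called higher and 2.02% lower after wild-type injury, and 0.134% higher and 0.242% lower after Myd88KO injury. After wild-type injury 6 of 10 proliferation genes rose (median 2.34), among them Ccnb1 by 2.77 and Birc5 by 2.6, and 3 of 9 leukocyte genes rose (median 2.57), among them Cd68 by 3.27 and Csf3r by 4.05, the latter well above background on 2 of 5 uninjured wild-type arrays. Of 11 ciliated cell genes 2 fell, the axonemal Dnah5 by 3.94 and Hydin by 3.44, and the median was -1.52, whereas Foxj1, the master factor of motile cilia, differed by -0.41 (limma adjusted p = 0.806). Of 11 basal cell genes 0 rose and 0 fell by limma (median 0.33, 3 with an unadjusted p under 0.05). Of 9 alveolar genes 2 fell, with differences of -7.59 for Sftpa1 and -3.91 for Sftpc, each well above background on 4 of 5 injured wild-type arrays. In Myd88KO, 1 of 10 proliferation genes rose (Aurka, by 2.23, where 0.134% of tested probes were called higher), 2 of 9 alveolar genes fell (Sftpa1 and Sftpb, well above background on only 3 and 1 of the 5 injured arrays, with measured differences of -6.98 and -2.16), and 0 leukocyte, ciliated and basal genes were called by limma (5, 3 and 1 with an unadjusted p under 0.05). Without replicate 5 these Myd88KO counts were 7 proliferation, 3 alveolar, 2 leukocyte and 1 ciliated, where 487 probes in all were called higher and 588 lower. One of 4 mucous cell genes, Clca1, a secreted goblet cell protein, fell by 3.34 in wild-type and differed by -0.36 in Myd88KO (limma adjusted p = 0.791), and it was higher in injured Myd88KO than in injured wild-type by 4.21 (limma adjusted p = 0.000484, where 0.15% of tested probes were called higher), a call lost in the fit to these 2 groups alone and in the methods' one-way test. Submucosal gland, thyroid, oesophageal squamous, and cartilage and smooth muscle genes gave 0 calls by limma after injury in either genotype (1, 0, 0 and 2 with an unadjusted p under 0.05 in wild-type, and 3, 2, 0 and 1 in Myd88KO).

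In injured Myd88KO tracheas Scgb1a1 and Scgb3a2 were lowest on the arrays with the highest proliferation and leukocyte medians. Relative to the uninjured Myd88KO mean, Scgb1a1 differed by -3.17, -8.8, -5.24, -7.78 and -0.4 in replicates 1 to 5 and Scgb3a2 by -1.2, -6.07, -3.62, -5.94 and -0.06. Replicates 2 and 4, with the lowest Scgb1a1 and Scgb3a2 values, had the highest proliferation medians (3.1 and 3.15) and leukocyte medians (3.12 and 2.92) and the lowest ciliated medians (-2.22 and -3.15). Scgb3a1 differed by -0.07 and -0.69 on those arrays, the former its second highest value of the 5 and the latter its lowest. Replicate 1 combined a Scgb1a1 difference of -3.17 with ciliated genes above uninjured (median 2.03) and a proliferation median of 2.14. Replicate 5 lay within 0.4 of uninjured for Scgb1a1 and within 0.06 for Scgb3a2. In injured wild-type tracheas Scgb1a1 lay between -8.46 and -7.38, while ciliated medians ran from -3.47 to -0.6 and leukocyte medians from 1.55 to 3.54. Wild-type replicates 1 and 5 had the lowest ciliated and highest leukocyte medians, and there Scgb3a2 was also lowest (-6.56 and -6.65, against -5.47 to -5.08 on the other 3). These replicates were scanned on the second day (wild-type Scgb3a2 injury difference -6.99, against -4.95 on the first). Scan day and differences between tracheas cannot be told apart there. The part of these cell types in the secretoglobin values was not tested.

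**Figure D4:**
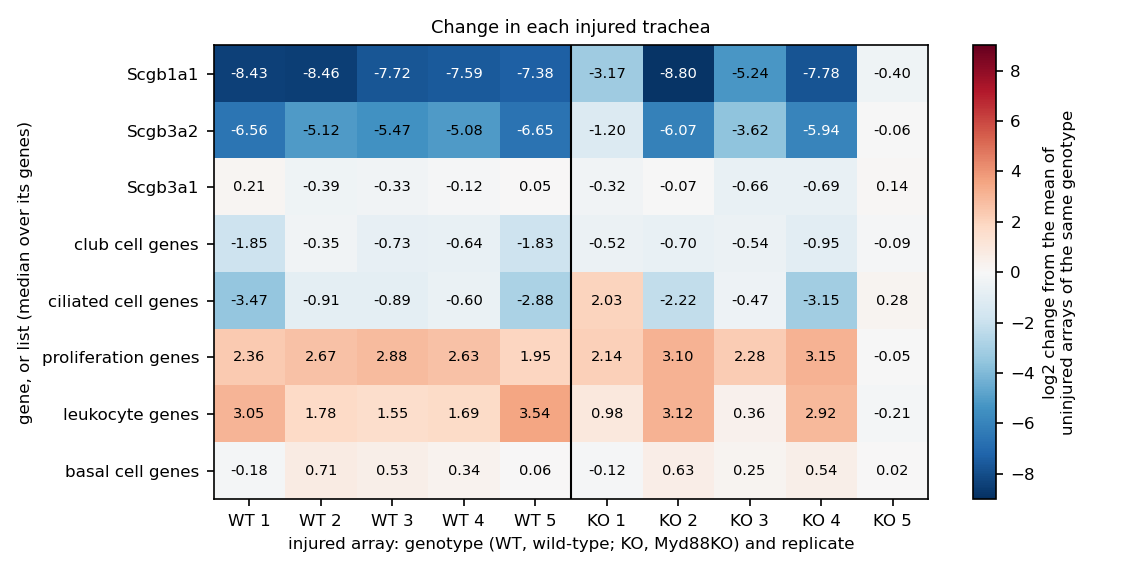
Log2 change in each injured trachea (columns, wild-type then Myd88KO, by replicate) from the uninjured mean of its genotype, for the 3 secretoglobins and for the median of 5 gene lists (rows). Myd88KO replicates 2 and 4 resemble the wild-type columns for Scgb1a1 and Scgb3a2, replicate 5 is near 0 in every row, and the Scgb3a1 row stays between -0.69 and 0.21.

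Over all arrays together, Scgb1a1 and Scgb3a2 varied alike. Pearson's r of log2 levels was 0.98 between Scgb1a1 and Scgb3a2 (19 arrays), and 0.83 once group means were removed, while Scgb3a1 gave 0.34 with Scgb1a1 and 0.36 with Scgb3a2. Most spread within groups was in injured Myd88KO (SD 2.54 for Scgb1a1 and 2.72 for Scgb3a2, against 0.5 and 0.77 in injured wild-type). Among injured wild-type tracheas the order differed, replicate 5 having the highest Scgb1a1 (-0.09) and the lowest Scgb3a2 (2.59). Arrays within a group share treatment and slides are shared across groups, so these values describe the arrays only. The levels most like Scgb1a1 were those of Marchf4 (r = 0.99), Sntn, 3300002A11Rik, Fam166b and Fam216b (each r = 0.98), and most like Scgb3a2 were Gtsf1l, Tmem212, 1700024G13Rik, Marchf4 and Fam216b (each r = 0.99 over 20 arrays). Sntn encodes sentan, a protein of ciliary tips. With group means removed, Gtsf1l and Tmem212 (r = 0.97), Fam166c, the axonemal dynein Dnah9 and 1700024G13Rik (r = 0.96) followed Scgb3a2. For Scgb1a1 these were AW554918, the centrin Cetn4 and Cep83os (r = 0.92), A430035B10Rik and Nsun7 (r = 0.91). Scgb3a1 levels were most like those of Rabac1 and 4933440N22Rik (r = 0.93), Fuom, the lysozyme Lyz2 and the ribosomal Rplp0 (r = 0.91). Its deviations from group means were most like those of 4933440N22Rik (r = 0.94), Stat3 (r = 0.93), Vkorc1, Rplp1 and Lyz2 (r = 0.92).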

How the data were processed

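RNA from 20 whole tracheas (600 ng per the labels) was hybridised by the authors to one-colour Agilent mouse arrays, 1 per trachea. The authors deposited scanner output of Agilent Feature Extraction 9.5.1.1, whose processed intensity is background-subtracted, detrended within the array and not scaled between arrays. Very bright spots were read from a second, low-gain scan. The authors' value table gave these intensities in rounded form (0.995 to 1 times the scanner value). No column belonged to other samples.

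Here 1639 control spots of 45018 and values with an outlier mark (1960 over all arrays) were left out, log2 intensities were averaged by probe, and each array's 75th percentile was subtracted. A probe was tested when well above background on at least 10 of 20 arrays (26075 probes). Group differences were fitted in R 4.3.3 with limma 3.58.1 (lmFit, eBayes) on all 20 arrays, and a probe was called at a Benjamini-Hochberg adjusted p under 0.01 over all tested probes. Probes were named through RefSeq accessions (22951), symbols (6659) or older symbols (3109), and for lists the brightest probe of a gene stood for it. Shifts of pairs of secretoglobins used exact permutation tests at 0.05. The limma steps were tested on simulated data. The number of arrays limits the precision, and p-values measure the spread between tracheas, which limma pooled over the 4 groups.

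Genes named were the 3 secretoglobins, the other tested secretoglobins, members of the club cell, transcription factor and receptor lists, at most 4 genes of each other list by size of wild-type injury difference, the 5 genes of highest correlation, and Myd88. Sftpb and Aurka, and within these lists Foxj1, were named after their values were seen. The secretoglobins and lists were chosen with earlier results of these data known. Samples sharing a replicate number shared a slide. Their deviations from group means correlated by 0.25 to 0.48 between uninjured genotypes, all 5 pairs over 0.1, by -0.03 to 0.39 for wild-type injury, by 0 to 0.46 for Myd88KO injury, and by -0.22 to 0.33 between injured genotypes. Alternatives covered outlier spots, background correction, normalization, the filter, slide and scan day as blocks, array weights, fits to 2 groups, the methods' one-way test, the value table and leaving out each array. Of the club cell genes, 1 is counted in the list but not reported here.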

Additional observations from a re-analysis of the deposited data

How the results depend on the processing

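The wild-type falls of Scgb1a1 and Scgb3a2 stayed called under all 12 alternatives (-7.91 to -7.74 and -5.79 to -5.7) and without any single array (-8.05 to -7.75 and -5.94 to -5.55). The Myd88KO fall of Scgb1a1 lost its call with outlier spots kept (-5.08), in a fit to the 2 groups alone (-6.24, limma adjusted p = 0.062) and in the methods' one-way test (-6.24, adjusted p = 0.135), and the club cell genes called lower there were then 0, 0 and 0. With array weights the Myd88KO difference of Scgb3a2 was called (-4.61, limma adjusted p = 8.44e-05), with 6 club cell genes lower. The Scgb3a1 differences changed sign with quantile normalization (wild-type injury 0.08, Myd88KO injury 0.04, injured genotype 0.05) and with normexp and quantile (0.03 for wild-type injury and 0.04 for injured genotype), where the uninjured Scgb1a1 minus Scgb3a1 shift was 0.35 (exact permutation, adjusted p = 0.103). The cause was not tested.

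With the replicate block (slide), no limma call of a secretoglobin changed. The pairwise shifts could not pass, in the order wild-type injury, Myd88KO injury and uninjured genotype: -7.8, -5.85 and 0.48 for Scgb1a1 minus Scgb3a1, -2.14, -2.08 and 0.75 for Scgb1a1 minus Scgb3a2, and 5.66, 3.06 and 0.27 for Scgb3a1 minus Scgb3a2.

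Leaving out 1 array at a time gave, for Scgb3a1, -0.28 to 0.02 after wild-type injury and -0.14 to 0.07 between injured genotypes, and for Scgb3a2 -0.19 to 0.04 between uninjured genotypes. The Scgb3a2 difference in Myd88KO ran from -4.2 (without injured replicate 5, called) to -2.7. Club cell genes called lower ran from 5 (without wild-type injured replicate 1) to 9 in wild-type, and in Myd88KO from 0 (without uninjured replicate 3 or injured replicate 2, 3 or 4) to 4 (without injured replicate 5). The uninjured shifts ran from 0.38 to 0.57 for Scgb1a1 minus Scgb3a1 and from 0.19 to 0.32 for Scgb3a1 minus Scgb3a2, and the latter after Myd88KO injury from 2.32 to 3.77, with adjusted p up to 0.0625 by exact permutation without any 1 uninjured Myd88KO array.

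Probes called higher and lower after Myd88KO injury were 35 and 63, against 857 and 1229 with array weights, 131 and 229 with scan day as a block, 20 and 40 with no filter, 30 lower with median scaling, 487 and 588 without injured replicate 5, and 0 and 0 in the 2-group fit and the one-way test. Leaving out any 1 array gave 1 to 487 higher (1 without injured replicate 2 or 4 or uninjured replicate 3) and 5 to 588 lower (5 without injured replicate 2 or 4). After wild-type injury they were 844 and 528, against 1298 and 808 with scan day and 1612 and 1015 with weights, and 364 to 1161 higher (364 without uninjured replicate 2) and 291 to 682 lower (291 without uninjured replicate 4 or injured replicate 1) without any 1 array. Between uninjured genotypes they were 49 and 51, against 20 and 26 in the one-way test 87 and 92 with weights and 27 lower with all 20 arrays required. Between injured genotypes they were 39 and 60, against 17 and 21 in the 2-group fit 5 and 16 in the one-way test and 35 lower with all 20 arrays required. For the interaction they were 0 and 0, against 1 and 0 with the replicate block, 1 and 1 with scan day, 0 and 3 with weights, and 1 and 2 without injured Myd88KO replicate 5.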
